A study of Arabidopsis thaliana with 6 samples.

Results

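Small heat shock protein genes and genes of acquired thermotolerance were followed through 3 days of drought in unopened Arabidopsis thaliana flower buds. The 5 genes were AT5G51440, ATHSP22.0 (AT4G10250), AT2G29500, HSA32 (AT4G21320) and AT5G48570. They were identified by locus, through the platform annotation and a RefSeq gene table, and each was represented by 1 probe set annotated to it alone, 5 of the 22746 probe sets tested. These genes and the gene lists used below were chosen with earlier results of these data known. Their counts beside the shares of all probe sets are therefore descriptions, not independent support.

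Small heat shock proteins are chaperones that bind unfolding proteins and hold them for refolding by other chaperones. Plants have many of them, sorted by compartment, and most are induced by heat through heat shock factors. In flowers and seeds, drought and the drying of maturing tissue can induce some of them too. AT5G51440 is known as a small heat shock protein gene of the mitochondrion, ATHSP22.0 of the endoplasmic reticulum and AT2G29500 of the cytosol. HSA32 is known for keeping acquired thermotolerance over days of recovery. AT5G48570, also named ROF2 or FKBP65, encodes a peptidyl-prolyl isomerase found in complexes with HSP90 and the heat shock factor HSFA2. The gene table gives no product for AT5G51440, AT2G29500 or the other genes named here by locus only, and their roles are given from general knowledge of the loci.

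All plants carried anac019-1, 1 T-DNA insertion line (SALK_096295) in Col-0 that disrupts ANAC019, which encodes a NAC transcription factor, and all had been droughted. The growth conditions recorded for all of them were 22 °C and 16 hours of light a day. Water was withheld after 24 days of growth, when plants had just bolted; day 3 came about 80 hours later, with soil near 35% of its holding capacity, and that level was then kept. Buds were sampled on day 3, day 4 and day 5 of drought, at a plant age of 28, 29 and 30 days after germination, with 2 arrays a day. Wild-type and well-watered plants were not analysed here. The duration of drought and the age of the plants cannot be told apart, and nothing below shows what the mutation does. The targeted gene ANAC019 was not analysed here and could not check the labels. Nothing in the labels says that replicates came from separate plantings, so the p-values reflect only how far these samples differ, and that spread may be technical.

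The values are log2 summaries from RMA, which gives every array the same distribution of probe intensities, and a change is therefore relative to the other transcripts. RMA also understates changes of dim probe sets. The probe sets of the 3 small heat shock genes were dim: averaged over the 6 arrays, 19.1% of all probe sets read lower than that of AT5G51440, 24.2% lower than that of ATHSP22.0 and 24.1% lower than that of AT2G29500. For HSA32 the share was 45.8% and for AT5G48570 48.3%. There are no detection calls, so it is not known whether the 3 dim ones stood above background.

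AT5G51440 read 3.57 and 3.80 on day 3 (log2), 4.27 and 4.13 on day 4, and 3.60 and 3.83 on day 5. Both day 4 arrays lay above all 4 others, while those of day 3 and day 5 overlapped. Its day means were 3.68 ± 0.16 (SD, n = 2), 4.20 ± 0.10 and 3.72 ± 0.17, and those of days 3 and 5 differed by less than the replicates of either day.

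ATHSP22.0 read 3.98 and 4.06 on day 3, 4.39 and 4.63 on day 4, and 4.29 and 4.48 on day 5. Both day 3 arrays were lower than the other 4, and the arrays of days 4 and 5 overlapped. AT2G29500 read 3.84 and 3.98 on day 3, 4.27 and 4.52 on day 4, and 4.72 and 4.48 on day 5. It was likewise lowest on day 3, with day 4 and day 5 overlapping. The day means of days 4 and 5 were 4.51 ± 0.17 and 4.38 ± 0.14 for ATHSP22.0, and 4.39 ± 0.18 and 4.60 ± 0.17 for AT2G29500 (SD, n = 2). In both genes these means differed by less than the replicates of either day.

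HSA32 read 6.49 and 6.32 on day 3, 6.51 and 6.69 on day 4, and 7.09 and 6.97 on day 5. The 2 day 5 arrays were the highest, and the higher day 3 array lay just below the lower day 4 array. AT5G48570 read 7.04 and 6.80 on day 3, 7.07 and 7.08 on day 4, and 6.64 and 6.60 on day 5. It was lowest on day 5, and its day 4 replicates were nearly equal.

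**Figure D1:**
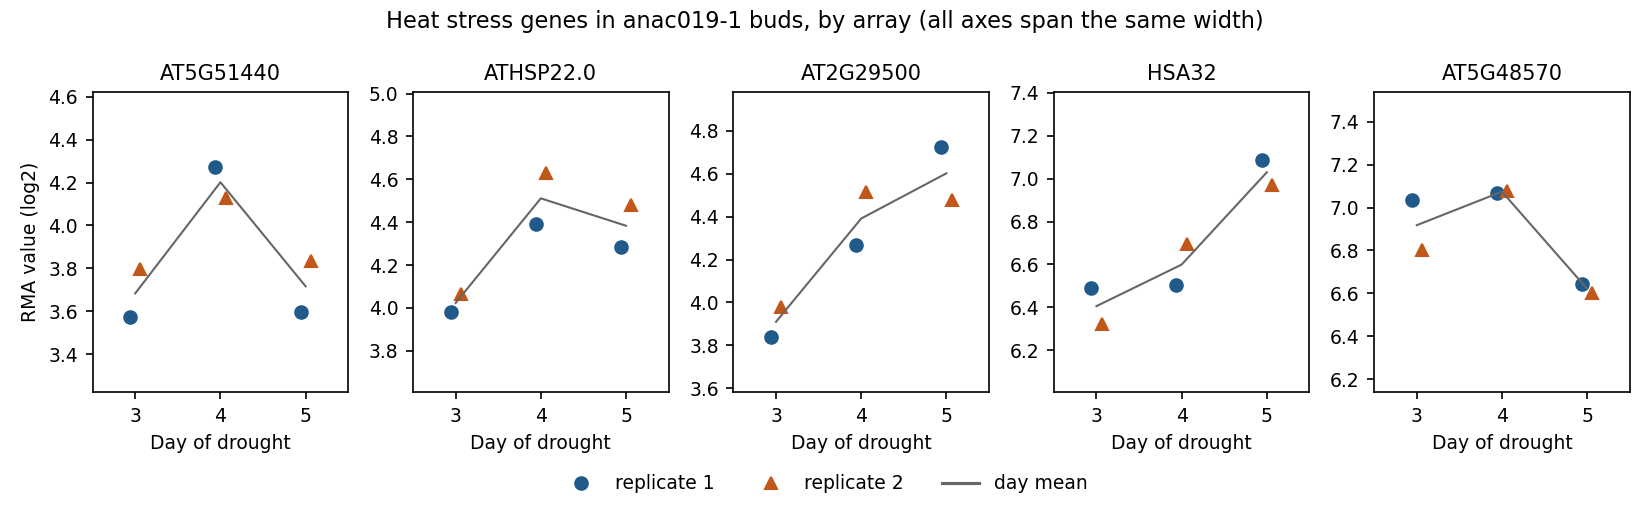
RMA values (log2, vertical axis) of the 5 genes on day 3, 4 and 5 of drought (horizontal axis), with a circle for replicate 1, a triangle for replicate 2 and a line through the day means; all vertical axes span the same width, each at its own level. Both day 4 arrays are the highest for AT5G51440 and, narrowly, for AT5G48570. On both day 5 arrays HSA32 is highest and AT5G48570 lowest.

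The early step, from day 3 to day 4, asked whether these genes respond while the soil is held at its dry level. In each of the 5 genes both day 4 arrays read higher than both day 3 arrays, where 17.8% of all probe sets did so and 39% were apart in either direction. None of the 5 passed an adjusted p of 0.05 in limma, against 0.501% of all probe sets (0.268% higher), and 3 had an unadjusted p under 0.05, against 9.17%. Because the 5 were chosen with earlier results known, these counts do not show that they stand out. The differences of the 3 small heat shock genes were alike in size. AT5G51440 differed by 0.52 ± 0.14 (SE; n = 2 arrays a day, as in every comparison below), 1.43-fold, with a 95% interval of 0.19 to 0.84 on the log2 scale (limma adjusted p = 0.235). ATHSP22.0 differed by 0.49 ± 0.13, with an interval of 0.18 to 0.80 (adjusted p = 0.248). AT2G29500 differed by 0.48 ± 0.14, with an interval of 0.15 to 0.81 (adjusted p = 0.296).

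HSA32 and AT5G48570 differed by less at the early step. HSA32 was 0.19 ± 0.13 higher on day 4, with an interval of -0.10 to 0.49 (adjusted p = 0.737), and AT5G48570 was 0.16 ± 0.12 higher, with an interval of -0.13 to 0.44 (adjusted p = 0.793). The median difference of the 5 genes was 0.48, and that of all probe sets was -0.0047.

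The late step, from day 4 to day 5, moved the genes in different directions. Of the 5 genes, 1 rose (HSA32), 2 fell (AT5G51440 and AT5G48570) and 2 did not pass, where 22.1% of all probe sets passed, 10.4% higher and 11.6% lower. HSA32 rose by 0.43 ± 0.13 on the log2 scale, 1.35-fold (limma adjusted p = 0.0468). AT5G51440 fell by 0.49 ± 0.14, to 1.40-fold below day 4 (adjusted p = 0.0426). AT5G48570 fell by 0.45 ± 0.12, to 1.37-fold below (adjusted p = 0.034). In these 3 genes the arrays of the 2 days did not overlap, which held for 63.9% of all probe sets, 26.9% with day 5 higher and 37% with day 5 lower.

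ATHSP22.0 differed by -0.13 ± 0.13 at this step, with an interval of -0.44 to 0.18 (adjusted p = 0.565). AT2G29500 differed by 0.21 ± 0.14, with an interval of -0.12 to 0.54 (adjusted p = 0.35). The 3 calls lay close to the threshold, and each was lost when any 1 array of day 4 or day 5 was left out, with adjusted p between 0.0684 and 0.26. Those of AT5G51440 and AT5G48570 were also lost with cyclic loess (adjusted p = 0.0594 and 0.0537), and that of HSA32 with probe sets annotated to 1 gene (0.0524) and under limma's trended, robust prior (0.0629).

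Between day 3 and day 5, the whole interval, AT2G29500 and HSA32 rose and the other 3 genes did not pass, where 28.8% of all probe sets passed, 12.9% higher and 15.9% lower. At an unadjusted p under 0.05 there were 4 of the 5, against 39.4% of all probe sets. AT2G29500 rose by 0.69 ± 0.14, 1.62-fold (limma adjusted p = 0.00931), a call lost without day 5 replicate 1 (0.57, adjusted p = 0.0515). HSA32 rose by 0.62 ± 0.13, 1.54-fold (adjusted p = 0.00876), a call that held whichever array was left out. Day 5 arrays lay above day 3 arrays in 3 of the 5 genes, as in 26.3% of all probe sets, and below them in 1. Over all probe sets, 61.6% were apart in either direction and 35.3% lower.

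ATHSP22.0 was 0.36 ± 0.13 higher on day 5 than on day 3, with an interval of 0.05 to 0.67 (adjusted p = 0.0824). AT5G48570 differed by -0.30 ± 0.12, with an interval of -0.58 to -0.01 (adjusted p = 0.111). AT5G51440 was back near its day 3 level, with a difference of 0.03 ± 0.14 and an interval of -0.29 to 0.36 (adjusted p = 0.901). The early and the late step share the day 4 arrays, and both share an end with the whole interval, so the 3 comparisons are not independent.

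The steps themselves were compared by subtracting the early from the late change. None of the 5 genes passed this test in limma, against 1.93% of all probe sets (1.41% higher, 0.523% lower), and 3 had an unadjusted p under 0.05, against 17% of all probe sets. AT5G51440 had the widest difference between steps of the 5, -1.004 ± 0.24, with an interval of -1.56 to -0.44 (adjusted p = 0.0881). ATHSP22.0 followed with -0.62 ± 0.23 (adjusted p = 0.233) and AT5G48570 with -0.61 ± 0.21 (adjusted p = 0.201). The difference was -0.27 ± 0.25 for AT2G29500 (adjusted p = 0.642) and 0.24 ± 0.22 for HSA32 (adjusted p = 0.649), and both intervals included 0. That AT5G51440 passed at the late step and not at the early step therefore does not show by itself that its steps differ.

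**Figure D2:**
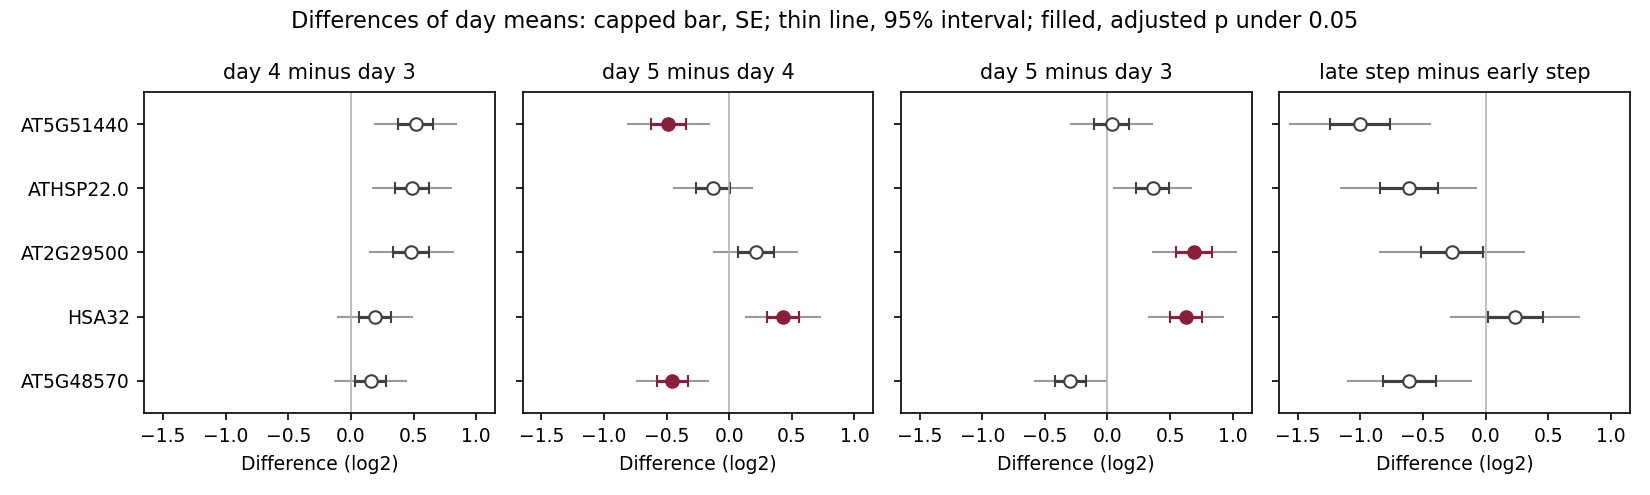
Differences of day means (log2, horizontal axis) for the 5 genes in 4 comparisons; circles are estimates, capped bars the limma SE, thin lines the 95% interval, and filled circles passed an adjusted p of 0.05. All 5 early differences lie above 0 without passing, the late step holds 2 falls and 1 rise, and AT2G29500 and HSA32 pass over the whole interval.

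The 5 genes did not share a single profile. Across the 6 arrays, Pearson's r between pairs ran from -0.64, between HSA32 and AT5G48570, to 0.86, between AT2G29500 and HSA32. ATHSP22.0 had r = 0.75 with AT2G29500 and 0.66 with AT5G51440, while AT2G29500 and AT5G51440 had r = 0.17. These are descriptions over 6 arrays that share their days, and carry no test.

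The probe sets most like each gene were sought among those of 1 gene whose range over the 6 arrays was at least 0.5 of its own. For AT5G51440, AT1G47610 was among the 3 most alike (r = 0.961), with values of 8.29 and 8.36 on day 3, 9.28 and 8.996 on day 4, and 8.39 and 8.67 on day 5. It too was highest on day 4. The others were AT2G10460 (0.983) and AT3G55820 (0.977). For ATHSP22.0 they were AT3G19740 (0.976), AT4G38100 (0.969) and SAG29 (0.961), a senescence-associated gene of the SWEET sugar transporter family. For AT2G29500 they were AT2G38790 (0.979), AT5G38310 (0.967) and AT4G19010 (0.967).

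For HSA32 the closest profiles were those of AT5G27180 (0.995), AT4G16150 (0.990) and SGT1A (0.986), an HSP90 co-chaperone gene. SGT1A read 7.72 and 7.53 on day 3, 7.68 and 7.78 on day 4, and 8.09 and 8.07 on day 5, highest on day 5 as HSA32 was. For AT5G48570 they were JAL34 (0.995), a jacalin-related lectin gene, SDT (0.990), a spermidine acyltransferase gene, and AT3G53400 (0.989). JAL34 read 5.404 and 4.65 on day 3, 5.32 and 5.52 on day 4, and 4.06 and 3.96 on day 5, a far wider range than that of AT5G48570. These r are the highest of 7620 to 11952 probe sets compared per gene over 6 arrays, and carry no test.

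Of 85 listed heat stress genes, 17 had a probe set of 1 gene, the 5 above and 12 others. None of the 21 listed heat shock factor genes and none of the 7 other heat response genes was among them. Of these 17, 2 passed at the early step (1 rose, 1 fell), against 0.501% of all probe sets. At the late step 8 passed (2 rose, 6 fell), against 22.1%. Over the whole interval 4 passed (3 rose, 1 fell), a share no higher than the 28.8% of all probe sets. The difference between steps passed in 4, against 1.93%. The median of the 17 was 0.16 at the early step, -0.13 at the late step and 0.03 over the whole interval, beside -0.0047, -0.041 and -0.043 for all probe sets.

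The other small heat shock genes went separate ways. AT4G21870, of the cytosolic group, read 8.34 and 8.60 on day 3, 7.57 and 7.55 on day 4, and 8.01 and 8.14 on day 5. It was lowest on day 4, where AT5G51440 was highest. It fell by 0.91 ± 0.13 at the early step (limma adjusted p = 0.0369) and rose by 0.52 ± 0.13 at the late step (adjusted p = 0.0252), and its steps differed by 1.43 ± 0.22 (adjusted p = 0.0248). The early call was lost without any 1 of the 6 arrays, or with only the arrays of days 3 and 4. The late call was lost without any 1 of the 4 arrays of days 4 and 5. With the arrays centred on added poly-A control RNA, described further on, the late change of AT4G21870 was 0.12 (adjusted p = 0.582) and the difference between its steps 1.14 (adjusted p = 0.0629), and neither passed.

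AT2G19310, also placed with the cytosolic group, read 8.85 and 8.66 on day 3, 8.84 and 8.88 on day 4, and 9.50 and 9.12 on day 5. It rose by 0.55 ± 0.15 over the whole interval (adjusted p = 0.0287), which no longer passed after omitting replicate 2 of day 3, replicate 1 of day 5, either array of day 4 or both. With poly-A centring the change of AT2G19310 was 0.05 (adjusted p = 0.799). Of the 5 measured cytosolic genes, 2 rose over that interval, AT2G29500 and AT2G19310, where 12.9% of all probe sets rose, and neither passed with poly-A centring. Of the 4 measured organelle genes, AT5G51440 was the only 1 to pass in any comparison as reported, at the late step.

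AT5G37670, of the peroxisome, read 5.69 and 5.02 on day 3, 5.62 and 5.65 on day 4, and 5.92 and 5.61 on day 5. Its day 3 replicates were farther apart than the day means, and it passed in no comparison with all 6 arrays. Over the whole interval it was 0.41 higher on day 5, and 0.75 higher without day 3 replicate 1. AT1G53540, AT1G54050 and AT1G52560, named to complete these groups, did not pass in any comparison either. AT1G59860 and AT1G07400 share a probe set and were not named from it.

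The HSP70 and HSP40 genes, whose products refold what small heat shock proteins hold, were represented by 3 of the 17 listed. All 3 fell at the late step, where 11.6% of all probe sets fell. The difference between steps also passed in all 3, with the late change lower, as it did in 0.523% of all probe sets. At the early step AT2G20560 alone of the 3 passed. Hsp70-2 (AT5G02490) read 9.40 and 9.34 on day 3, 10.03 and 10.09 on day 4, and 9.30 and 9.03 on day 5. It fell by 0.89 ± 0.13 at the late step (adjusted p = 0.00353), and its early difference of 0.69 did not pass.

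AT3G09440, a cytosolic HSP70 gene, read 10.88 and 10.97 on day 3, 11.08 and 11.34 on day 4, and 10.08 and 9.94 on day 5. Its early difference was 0.28 (adjusted p = 0.582). It fell by 1.199 ± 0.13 at the late step (adjusted p = 0.00124), and by 0.92 over the whole interval (adjusted p = 0.00197). The late falls of both HSP70 genes passed under all 15 alternatives. HSP70 genes have close copies, and whether these probes tell them apart was not tested.

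AT2G20560, of the HSP40 family of HSP70 partners, read 5.49 and 5.41 on day 3, 6.15 and 6.26 on day 4, and 5.82 and 5.77 on day 5. It rose by 0.76 ± 0.11 at the early step (adjusted p = 0.0421) and fell by 0.41 ± 0.11 at the late step (adjusted p = 0.0344). The early call of AT2G20560 held in 5 of 15 alternatives: it was lost with any single array omitted, with only the arrays of days 3 and 4, with the replicate block (adjusted p = 0.0501), with the trended, robust prior (0.0631) and with poly-A centring (0.0971). Its late call was lost with that prior or without any of the 4 arrays of days 4 and 5. Of the 3 HSP90 co-chaperone genes of the Hop family, which hand clients from HSP70 to HSP90, Hop2 fell by 0.39 ± 0.12 at the late step (adjusted p = 0.0491), and omitting any single array ended that call. Hop1 differed by -0.29 at that step, without passing, and by -0.69 with poly-A centring, which passed (limma adjusted p = 0.00463).

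**Figure D3:**
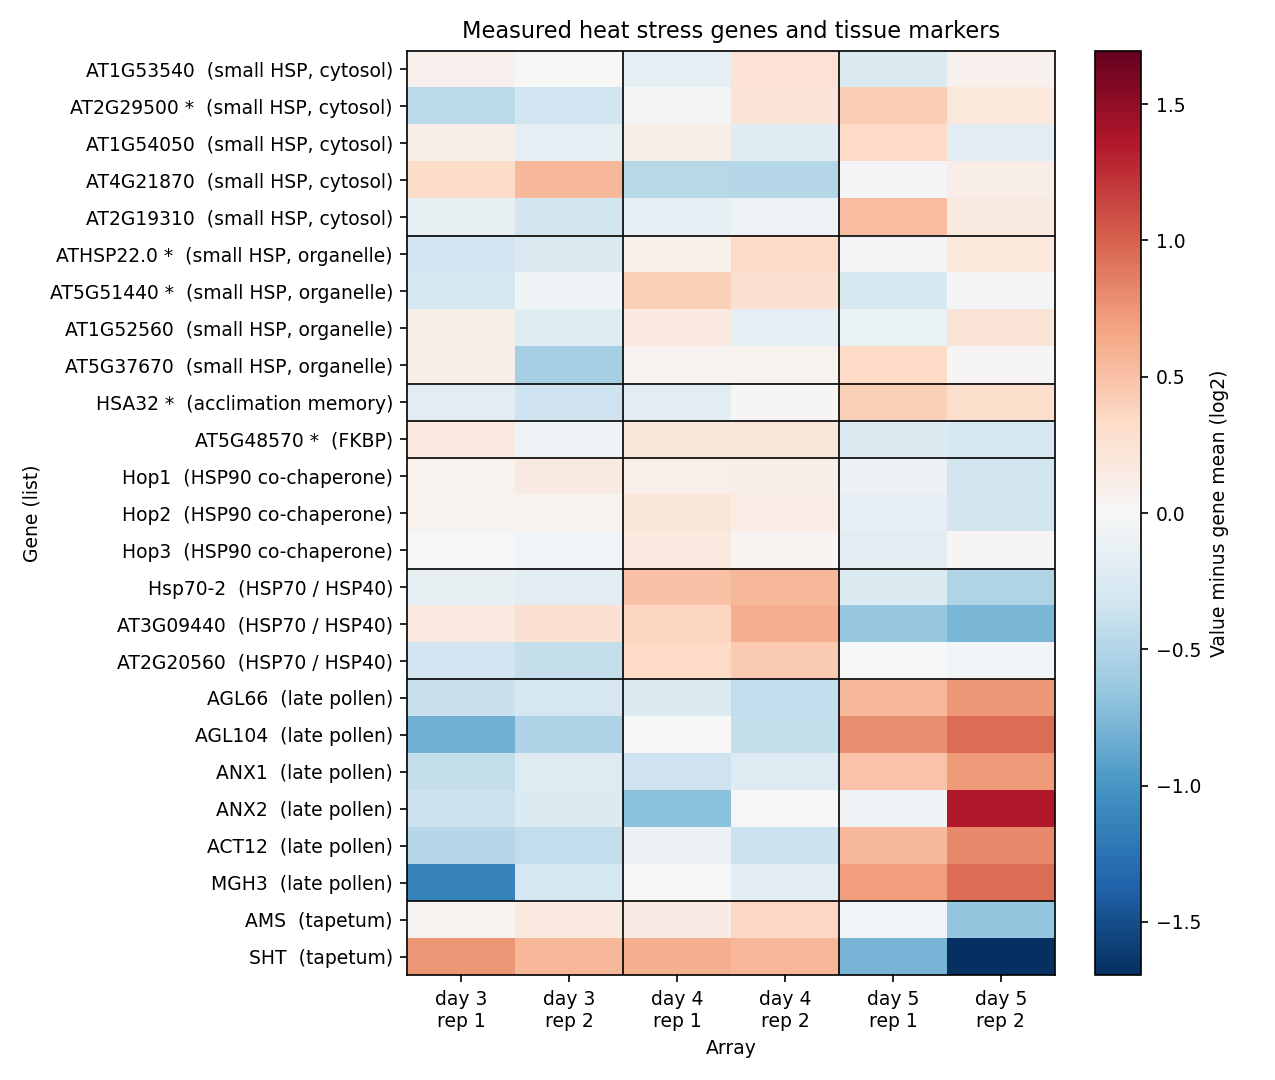
Values of the 17 measured heat stress genes and of 8 tissue marker genes (rows, grouped by list; asterisks mark the 5 genes described first) on the 6 arrays (columns), as the difference from each gene's mean over the arrays on the log2 scale. Hsp70-2, AT3G09440, AT2G20560, AT5G51440, AT5G48570, Hop2 and Hop3 are highest on both day 4 arrays, some by little, and AT4G21870 is lowest there. HSA32, AT2G19310 and the late pollen genes other than ANX2 are highest on both day 5 arrays.

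Anther markers moved at the late step as well. The 2 measured tapetum genes were AMS, a tapetum regulator, and SHT, a hydroxycinnamoyl transferase. SHT read 10.58 to 10.77 on days 3 and 4 and 9.24 and 8.32 on day 5; it fell by 1.83 ± 0.26 at the late step (adjusted p = 0.00338), and AMS differed by -0.60 without passing. Of 6 measured late pollen genes, 5 rose at that step, by 0.89 to 1.06 on the log2 scale, where 10.4% of all probe sets rose. With poly-A centring AMS differed by -0.99 at the late step, which passed (limma adjusted p = 0.00048). Those 5 pollen genes differed by 0.49 to 0.67 with that centring, and the call of MGH3 was lost (0.53, adjusted p = 0.0713). That of MGH3 was also lost without any 1 array of day 4 or day 5, and that of ACT12 without day 4 replicate 2. ANX2, the other one, read 6.62 and 8.04 on day 5.

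Summed over the late pollen genes, the log2 level was 8.98 and 9.19 on day 3, 9.37 and 9.26 on day 4, and 10.08 and 10.46 on day 5. Summed over the tapetum genes it was 11.11 and 10.996, 11.03 and 11.05, and 10.03 and 9.25. No tapetum or late pollen gene passed at the early step, where 0.501% of all probe sets did. At an unadjusted limma p under 0.05 there were 2 of the 6 late pollen genes, against 9.17% of all probe sets. These were AGL104 (0.47 higher on day 4) and MGH3 (0.62). Day 4 arrays lay above day 3 arrays in 3 of the 6, against 17.8%, and in neither tapetum gene. The part of a changing bud or anther composition in the late changes of HSA32, AT5G51440 and AT5G48570 was not tested, and in these bulk samples fewer cells of a type and less RNA per cell cannot be told apart.

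Control probe sets moved with the day too. The 24 poly-A spike-in probe sets, whose RNA is meant to be added in a fixed amount before labelling, averaged 6.51 and 6.38 on day 3, 6.46 and 6.64 on day 4, and 7.03 and 6.87 on day 5. The amount added is not recorded here. With the arrays centred on them, the median change of all probe sets was -0.11 at the early step, -0.44 at the late step and -0.55 over the whole interval, against -0.0047, -0.041 and -0.043 as reported. On that scale the late difference of HSA32 was 0.03 (adjusted p = 0.875) and its whole change 0.12 (adjusted p = 0.534), the whole change of AT2G29500 was 0.19 (adjusted p = 0.344), and ATHSP22.0 fell by 0.53 at the late step (adjusted p = 0.026).

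AT5G48570 fell by 0.85 at the late step and by 0.80 over the whole interval on that scale, and AT5G51440 by 0.88 (adjusted p = 0.00172) and 0.47 (adjusted p = 0.0422). The falls of AT5G48570 and AT5G51440 at the late step thus passed as reported and with poly-A centring. With cyclic loess neither passed (limma adjusted p = 0.0537 and 0.0594). The rises of HSA32 and AT2G29500 passed only relative to the other transcripts. The 25S ribosomal RNA control read 11.45 to 12.23 on days 3 and 4, and 13.11 and 12.82 on day 5. A sign of RNA integrity, how far 3′ probe sets of the housekeeping controls exceed their 5′ ones, averaged 2.23 in day 3 replicate 1 and 1.61 to 1.81 in the other arrays. The part of either in the values of the 5 genes was not tested; without that array the early differences were 0.41 for AT5G51440, 0.45 for ATHSP22.0 and 0.41 for AT2G29500, lower than with it, and 0.28 for HSA32 and 0.27 for AT5G48570, higher than with it. None of the 5 passed.

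**Figure D4:**
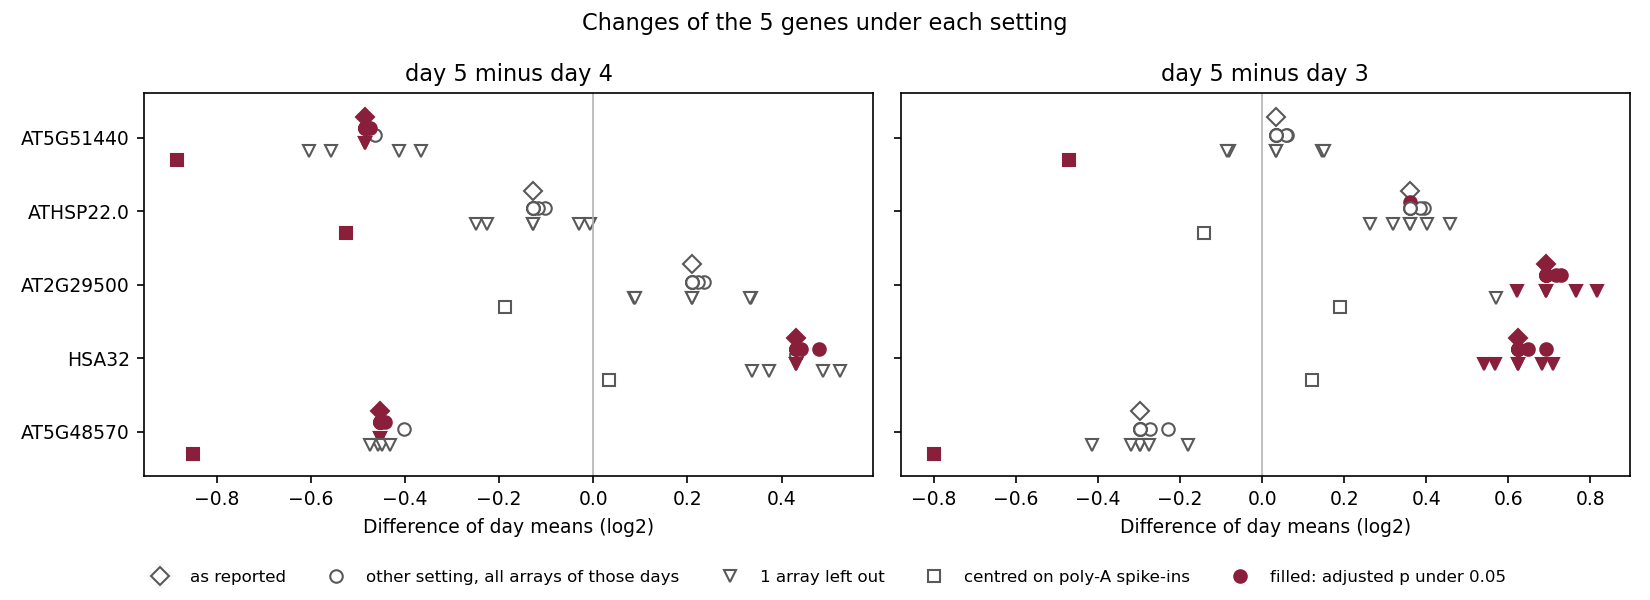
Differences of day means (log2, horizontal axis) of the 5 genes at the late step and over the whole interval, as reported (diamonds), with other settings (circles), with 1 array left out (triangles) and with poly-A spike-ins as the reference (squares); filled symbols passed an adjusted p of 0.05. Squares lie left of the other symbols throughout, and HSA32 keeps its call over the whole interval in every setting but that one.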

How the data were processed

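Total RNA from buds was hybridised to 6 single-colour Affymetrix arrays. The authors deposited log2 probe set values, made with RMA and the R package affy per the submitters' processing notes, with no versions given; no source used here tells whether these 6 were normalised alone. Values ran from 2.30 to 14.5. The table held 22810 probe sets, of which 64 Affymetrix controls were left out of the tests. The platform annotation gave 1 gene for 13513 probe sets, several for 503 and none for 8730, and 13436 of the first matched the TAIR10.1 RefSeq gene table by gene identifier.

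Groups and replicate numbers came from the sample titles. Day means were fitted on all 6 arrays with limma 3.58.1 (lmFit, eBayes) in R 4.3.3, with 3 residual and 4.69 prior degrees of freedom. P-values are two-sided and adjusted by Benjamini-Hochberg over all 22746 probe sets, with a threshold of 0.05; ± is the moderated standard error. The procedure was tested on simulated data with changes larger than any difference between days in the 5 genes. That test therefore does not cover changes of their size. The members and the lists were chosen with earlier results of these data known. Other heat stress and marker genes were named if they passed in any comparison, or were among the 2 of their list with the widest range. For each member the 3 probe sets with the highest Pearson's r were named. The alternatives were other filters, scalings and variance models, the replicate block and each array left out. Promoter and protein sequences were not used here.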

Additional observations from a re-analysis of the deposited data

Results flagged for a closer look

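The change from day 4 to day 5 differed from that from day 3 to day 4, by limma's test of the difference itself, in 4 of the named heat stress genes and in none of the 5 first described. The late step minus the early step was 1.43 on the log2 scale for AT4G21870, -1.58 for Hsp70-2, -1.48 for AT3G09440 and -1.17 for AT2G20560, with adjusted p of 0.0248, 0.0185, 0.0237 and 0.0301. None of these calls survived every omission of an array: 6 of 6 omissions ended that of AT2G20560, while that of Hsp70-2 was lost without day 3 replicate 1 or either day 4 array, that of AT3G09440 without those arrays or day 5 replicate 2, and that of AT4G21870 without either day 4 array or day 5 replicate 2. With poly-A centring that of AT4G21870 was lost too (1.14, adjusted p = 0.0629), and the other 3 passed.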

How the results depend on the processing

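With the poly-A centring the whole-interval change of AT5G51440 turned to -0.47 (adjusted p = 0.0422). The count of the 5 genes past the threshold at the late step (3 as reported) was 1 with cyclic loess and 0 to 3 with an array left out; over the whole interval (2) it was 1 with probe sets of a mean of at least 5, which leaves out the 3 small heat shock genes, and 1 to 2 with an array left out; for the difference between steps (0) it was 1 with poly-A centring, AT5G51440. At the early step it was 0 in all 15 alternatives. Counts over all probe sets, 114, 5020, 6548 and 440 for the early step, the late step, the whole interval and the difference between steps, became 46, 2548, 3439 and 161 with probe sets of 1 gene only, where fewer are tested, and 205, 11929, 16041 and 784 with poly-A centring; 32.7%, 7.69%, 6.87% and 28.1% of those were higher, against 53.5%, 47.3%, 44.7% and 73%. With only the arrays of the days compared the early count was 58, and with array weights the difference between steps gave 829. Leaving out an array gave 15 to 58, 1366 to 5427, 3894 to 5375 and 34 to 408. With the replicate block the counts were 123, 5827, 7333 and 546, and ATHSP22.0 passed over the whole interval (adjusted p = 0.0437); deviations of same-numbered arrays from their day means correlated at 0.0987 (days 3 and 4), 0.145 (days 3 and 5) and 0.376 (days 4 and 5). The labels do not say that a replicate number marks a shared pot or planting, so the numbers were not used to pair arrays. Whether same-numbered arrays share a source was not tested. The small number of arrays, 2 a day, limits the precision, and the dim probe sets of the small heat shock genes limit what their fold changes can show. The cause of these shifts was not tested.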
